A study of Mus musculus with 6 samples.

Results

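Axon guidance genes encode ligands and receptors that steer growing axons, and many of them also act in epithelia, vessels and tumours. The genes taken here were all those whose symbol in the array's annotation names an Eph receptor, an ephrin, a semaphorin of classes 3 to 7, a plexin, a neuropilin, a Slit, a Robo, a netrin or an Unc5 receptor. There were 67 of them among 19933 genes measured, 35 ligands and 32 receptors. All 67 matched a RefSeq gene by its identifier, and Ephb2 was not analysed here.

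The study compared expression in a mouse mammary carcinoma line with that in its derivative that outlived chemotherapy. The line, 4T1, came from a mammary tumour of a BALB/c mouse and metastasizes readily. Methotrexate (MTX) inhibits dihydrofolate reductase and so deprives dividing cells of nucleotides. WTR- was untreated 4T1 (3 arrays), and MR13 was 4T1 selected with MTX (3 arrays), labelled as 13 µg/ml for up to 2 weeks, until colonies of surviving cells could be seen. The dose is uncertain, because the concentration and length of treatment in the study's own text are different. Whether cells still received MTX when RNA was taken is not in the labels. RNA came from triplicate wells of each line, and no separate selections are named. The p values below thus reflect well-to-well variation, which may be technical, and say nothing about how selections would vary. Values are deposited log2 signals, 1 per gene and array. A gene was called when limma's test, adjusted by the Benjamini-Hochberg method over all 19933 genes, gave a p under 0.05, and differences are MR13 minus WTR- on the log2 scale.

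Guidance receptors sit at the cell surface and couple a ligand to the cytoskeleton. Eph receptors are tyrosine kinases that bind ephrins, which are themselves tethered to the membrane of a neighbouring cell and can signal backwards into it, and in epithelia this pair maintains boundaries between cell groups. Semaphorins signal through plexins, and the secreted class 3 proteins mostly need a neuropilin to bind them. Slits bind Robos and often repel cells, and netrins bind Dcc and neogenin, which attract, or Unc5 receptors, which repel or, without ligand, can promote cell death. Members of all these families have been studied in breast epithelium and in metastasis.

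Of the 67 members, 17 rose and 14 fell in MR13, and 36 were not called. Over all genes 37.6% were called (17.0% higher and 20.6% lower), against 46.3% of the members. Of the 10 members among the dimmest 30% of genes 1 was called. Of the other 57 members 30 were called (52.6%), and of all genes outside the dimmest 30% the share was 50.7%, so that the share of called members lay near the background. The median difference was 0.04 over the members and 0.01 over all genes. Differences of at least 2-fold were found for 8 called members, 5 higher and 3 lower (11.9%), while 4.06% of all genes were called and differed as much (1.96% higher and 2.10% lower). The values of the groups did not overlap for 44 members (65.7%) and for 47.4% of all genes. The 2-fold shares and the shares without overlap include the dim genes and were not matched for brightness. All of these shares are descriptions, with no test of the members as a list.

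**Figure D1:**
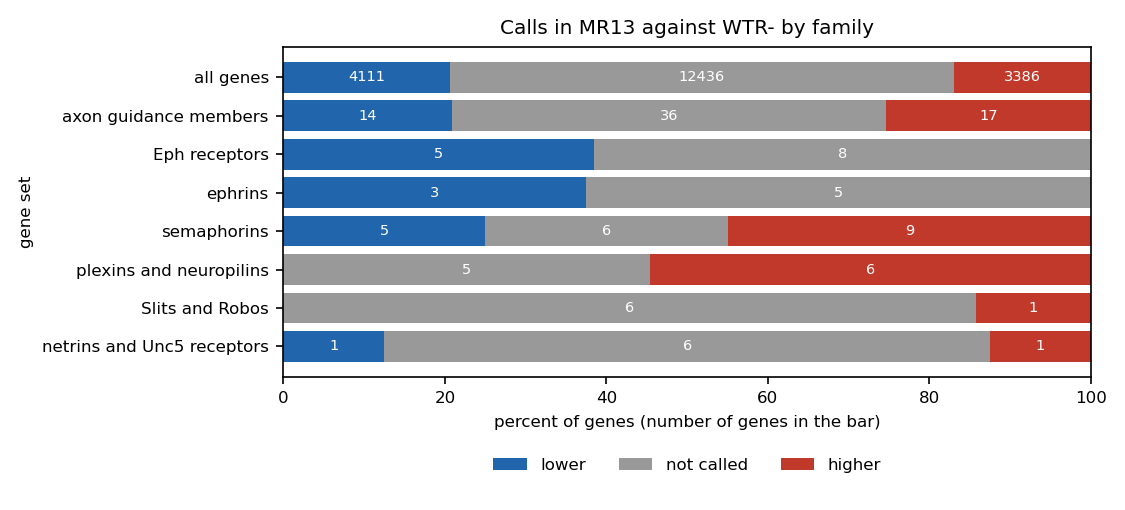
Share of genes called lower, not called and called higher in MR13 against WTR-, as a percent of each gene set, with the number of genes printed in each bar. Eph receptors and ephrins have no gene called higher, plexins and neuropilins none called lower, and the semaphorins have 9 higher and 5 lower. Of all genes 17.0% were called higher and 20.6% lower.

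Of 13 Eph receptors 5 fell, 8 were not called and none was called higher, with a median difference of -0.15. The share called was 38.5%, near the 37.6% of all genes. Outside the dimmest 30% it was 62.5%, against 50.7% of all genes. The largest fall was that of Epha4, a receptor that binds ephrins of both the A and the B type. Its values were 8.43, 8.29 and 8.44 in WTR- and 6.63, 6.92 and 6.57 in MR13. The 3 MR13 arrays all lay below the 3 WTR- arrays, and the means differed 3.21-fold (difference -1.68, SE 0.09, limma adjusted p = 1.52e-06). Ephb6, whose kinase domain is inactive, measured 7.94, 7.93 and 7.79 in WTR- and 6.77, 6.72 and 6.58 in MR13. All MR13 values of Ephb6 were the lower ones, and the difference was -1.20 (SE 0.07, 2.29-fold, limma adjusted p = 1.82e-06).

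Epha2 and Epha1, both common in epithelial cells, fell by less than 2-fold. Epha2 had a mean of 10.79 ± 0.04 in WTR- and 9.90 ± 0.07 in MR13 (SD, n = 3 each), a difference of -0.90. Epha1 had a mean of 9.28 ± 0.02 in WTR- and 8.40 ± 0.12 in MR13, a difference of -0.88. The fall of Ephb3, a receptor of B-type ephrins, was smaller (-0.24, limma adjusted p = 0.00736), and the groups did not overlap for any of these 3 genes. Ephb4, the receptor of ephrin-B2 in vessels, was not called at a difference of -0.15 (95% interval -0.29 to -0.01, limma adjusted p = 0.0925), although its arrays did not overlap. Epha10 and Epha8 differed by 0.01 and -0.03. The other 5 receptors, Epha3, Epha5, Epha6, Epha7 and Ephb1, lay among the dimmest 30% of genes, between -0.15 and -0.02, where background is part of each value and a difference can be understated.

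The stretches just before the start sites of Epha4, with the largest fall, and of Epha1, chosen for its motif, are shown as DNA context. They are the 250 bases before the RefSeq start on GRCm38.p6, on the gene's own strand, which is the minus strand for both. Capitals mark matches, on either strand, to 3 motifs: TTCNNNGAA (a STAT site), TGANTCA (an AP-1 site) and CAGGTG or its reverse complement CACCTG (the E-box bound by ZEB and SNAI proteins). The motifs do not overlap one another here. The Epha4 stretch, chr1:77515089-77515338, holds none of them, and the Epha1 stretch, chr6:42373269-42373518, holds 1 E-box that begins 71 bases before the start. The windows of the other Eph receptors called lower, Epha2, Ephb3 and Ephb6, hold none of the motifs.
Epha4: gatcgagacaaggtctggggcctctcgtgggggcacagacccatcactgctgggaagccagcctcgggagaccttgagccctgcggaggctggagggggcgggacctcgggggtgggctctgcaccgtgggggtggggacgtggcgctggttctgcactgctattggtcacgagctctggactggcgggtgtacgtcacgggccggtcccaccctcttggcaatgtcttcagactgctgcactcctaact
Epha1: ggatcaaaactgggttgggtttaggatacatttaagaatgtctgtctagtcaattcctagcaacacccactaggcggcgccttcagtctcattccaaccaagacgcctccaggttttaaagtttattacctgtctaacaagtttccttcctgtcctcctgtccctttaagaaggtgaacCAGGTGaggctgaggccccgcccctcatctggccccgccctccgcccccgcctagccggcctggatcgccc

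A window was present for 58 of the 67 members, with 74 windows in all since some genes have several starts. The E-box was found in 9 of the 74 (12.2%) and in 17.2% of the 32851 windows of all genes. The AP-1 site was found in 3 (4.05%, against 6.75% of all), and the STAT site in 2 (2.70%, against 7.02%). Base composition differed between these sets, with a median GC content of 64.4% in the member windows and 52.4% in all windows, and its part in the shares was not tested. Of the called members, Sema4c and Sema4f also had the E-box, as did a second start of Sema6d and of Plxnb2. The AP-1 site was in windows of Sema4c, Sema4d and Sema6b, and the STAT site in those of Efna3 and Epha3. A match is a run of letters, and binding was not measured here.

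Of 8 ephrins 3 fell and 5 were not called (37.5% called, against 37.6% of all genes), with a median of 0.04. None of the 8 lay in the dimmest 30%, and outside it 50.7% of all genes were called. Efnb1, a transmembrane ephrin that binds EphB receptors, fell the most. It measured 8.32, 8.43 and 8.42 in WTR- and 7.66, 7.78 and 7.47 in MR13. All MR13 arrays were below all WTR- arrays, at a difference of -0.75 (SE 0.08, 1.68-fold, limma adjusted p = 8.37e-05). Efna1, a preferred ligand of EphA2, and Efna2, both anchored by a lipid, differed by -0.49 and -0.47 (limma adjusted p = 0.000271 and 0.00274). The rest were slightly higher or level and missed the threshold. Efna5 differed by 0.21 (limma adjusted p = 0.0540), Efna3 by 0.20, Efnb3 by 0.14, Efnb2 by 0.11 and Efna4 by -0.03. Efna1, Efna3 and Efna4 are neighbours on chromosome 3, and of the 3 only Efna1 was called. Receptors and ligands of this system together numbered 21, with none called higher and 8 called lower. The share called was 38.1%, near the 37.6% of all genes. The absence of ephrins called higher depended on the processing, since Efna5 and Efnb2 were called higher after another quantile normalization and Efna5 and Efna3 when the dimmest 30% of genes were left out.

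**Figure D2:**
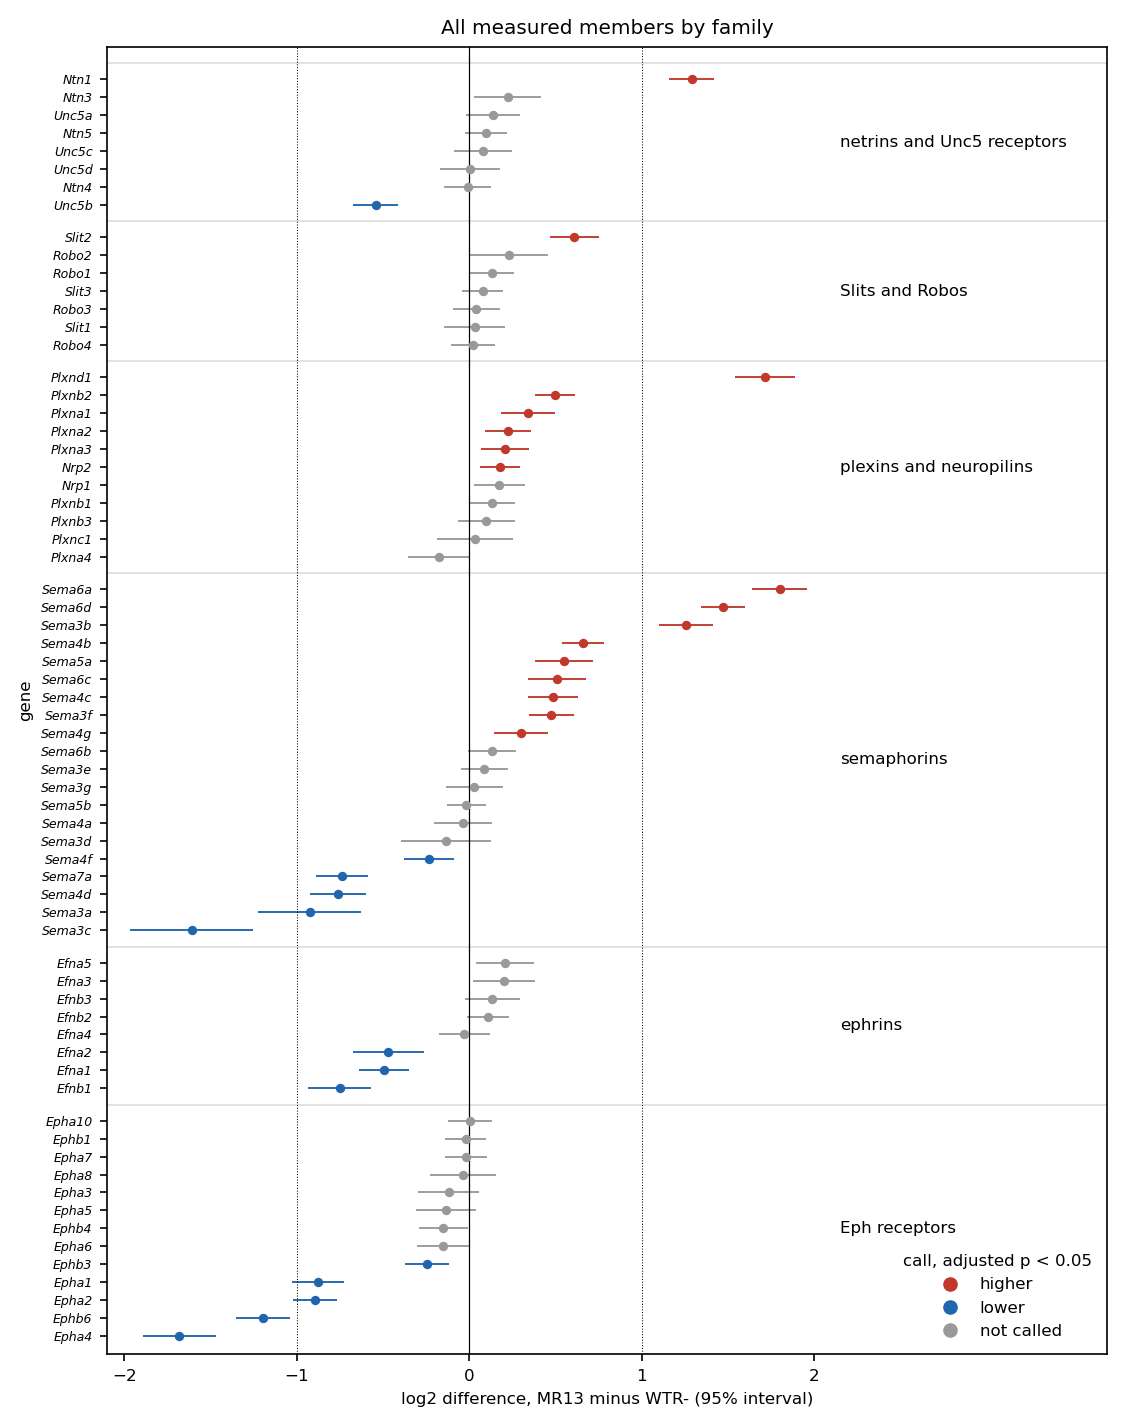
Log2 difference, MR13 minus WTR-, of each of the 67 members with its 95% interval from limma, grouped by family. Red and blue points are genes called higher and lower, grey ones were not called, and dotted lines mark a 2-fold difference, which 5 members passed upwards and 3 downwards.

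Of 20 semaphorins 9 rose, 5 fell and 6 were not called (median 0.11). The share called was 70.0%, against 37.6% of all genes. Outside the dimmest 30% it was 72.2%, against 50.7% of all genes. Class 6 semaphorins, transmembrane ligands of A-type plexins, had 3 of 4 members higher and none lower (75.0% called), with a median of 0.99. Sema6a measured 6.84, 6.64 and 6.62 in WTR- and 8.49, 8.56 and 8.46 in MR13. The arrays were far apart, with every MR13 value above every WTR- value, and the difference was the largest of all members (1.80, SE 0.07, 3.49-fold, limma adjusted p = 1.72e-07). Sema6d measured 7.35, 7.33 and 7.37 in WTR- and 8.76, 8.81 and 8.90 in MR13. It too was higher on each MR13 array, by 1.47 (SE 0.06, 2.78-fold, limma adjusted p = 1.49e-07). Sema6c rose by 0.51, and Sema6b differed by 0.13 and was not called (limma adjusted p = 0.132).

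The secreted class 3 moved both ways, with 2 of 7 higher and 2 lower (57.1% called, against 37.6% of all genes). Sema3b, a secreted ligand often described as a tumour suppressor, measured 7.69, 7.68 and 7.63 in WTR- and 8.79, 9.03 and 8.96 in MR13. No MR13 array reached down to the WTR- range, and the difference was 1.26 (SE 0.07, 2.39-fold, limma adjusted p = 1.27e-06). Sema3c, which signals through neuropilins and Plxnd1 in the developing heart, went the other way. It measured 6.41, 6.33 and 6.45 in WTR- and 5.03, 4.98 and 4.36 in MR13. All MR13 values were below the WTR- values and were spread more widely, with an SD of 0.37 against 0.06, and the difference was -1.61 (SE 0.16, 3.05-fold, limma adjusted p = 4.64e-05).

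All 3 MR13 values of Sema3c lay below 5.51, the 30th percentile of the genes' mean values, so that the size of the fall may be understated. Sema3a, the classical collapsing factor of growth cones, fell by 0.92 from a mean of 5.71 ± 0.19 to 4.78 ± 0.24 (SD, n = 3 each), and was the only called member in the dimmest 30%. Sema3f, a ligand of neuropilin-2, rose by 0.48 from 10.60 ± 0.01 to 11.08 ± 0.09. Sema3b and Sema3f lie near each other on chromosome 9, and of the 3 genes between them Gnai2 and Gnat1 were also called higher, by 0.32 and 0.31, while Slc38a3 differed by 0.21 and was not called. Sema3d, Sema3a and Sema3e lie near each other on chromosome 5. Sema3d differed by -0.13 and Sema3e by 0.09, and neither was called. Between Sema3a and Sema3e the 1 measured gene of 3, Speer3, was called lower (-0.41, limma adjusted p = 0.00182). Sema3g differed by 0.03.

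In the membrane-bound class 4, 3 of 6 genes rose, 2 fell and 1 was not called (83.3% called, against 37.6% of all genes). All 6 lay outside the dimmest 30%, where 50.7% of all genes were called. Sema4b rose by 0.66 from 9.30 ± 0.02 to 9.96 ± 0.06, Sema4c, a ligand of Plxnb2, by 0.48 from 9.65 ± 0.05 to 10.14 ± 0.10, and Sema4g by 0.30 (SD, n = 3 each). Sema4d, a ligand of B-type plexins, fell by 0.76 from 8.44 ± 0.03 to 7.68 ± 0.13. A second probe set of Sema4d, which was dimmer, differed by 0.03 (adjusted p = 0.816 over all probe sets in limma), so the 2 probe sets disagreed. Sema4f fell by 0.23 (limma adjusted p = 0.0191) and Sema4a was not called (-0.04). The call of Sema4f was lost without WTR- replicate 1, MR13 replicate 1 or MR13 replicate 3 (limma adjusted p = 0.0552 to 0.0759), which left Sema4d as the only class 4 gene called lower. Sema5a, which carries thrombospondin repeats, rose by 0.55, and Sema5b was not called (-0.02). Sema7a, a lipid-anchored semaphorin that binds integrins as well as Plxnc1, fell by 0.74 (SE 0.07, limma adjusted p = 3.04e-05).

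The window of Sema4c is printed because it was the only member window that held 2 of the 3 motifs. It is chr1:36558382-36558631 on GRCm38.p6, minus strand, with an E-box 124 bases and an AP-1 site 22 bases before the start, in capitals.
Sema4c: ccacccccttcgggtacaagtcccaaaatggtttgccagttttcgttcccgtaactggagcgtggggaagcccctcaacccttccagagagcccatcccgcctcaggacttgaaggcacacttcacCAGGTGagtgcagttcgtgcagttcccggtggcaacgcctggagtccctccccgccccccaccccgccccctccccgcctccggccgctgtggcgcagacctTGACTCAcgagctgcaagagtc

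Of 11 plexins and neuropilins, the receptors of semaphorins, 6 rose, 5 were not called and none was called lower, with a median of 0.18. The share called was 54.5%, against 37.6% of all genes. Outside the dimmest 30% it was 60%, against 50.7% of all genes. Among these receptors Plxnd1 had by far the largest difference. This receptor for Sema3e, best known from vessels, measured 7.10, 7.01 and 6.82 in WTR- and 8.64, 8.76 and 8.69 in MR13. The MR13 arrays were all above the WTR- arrays and close to one another, and the difference was 1.72 (SE 0.08, 3.29-fold, limma adjusted p = 3.98e-07). Plxnb2, a receptor for class 4 semaphorins, rose by 0.50 from 11.10 ± 0.04 to 11.60 ± 0.04 (SD, n = 3 each). Plxna1 rose by 0.34, and Plxna2 and Plxna3, like it receptors for class 3 and class 6 semaphorins, by 0.22 and 0.21. Without MR13 replicate 3 the calls of Nrp2, Plxna2 and Plxna3 were lost and 3 of these receptors were called higher, and without MR13 replicate 2 Plxna4 was called lower.

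Nrp2, the co-receptor that prefers Sema3f, rose by 0.18, the smallest difference among called members (limma adjusted p = 0.0209). Nrp1, which binds Sema3a and VEGF, had nearly the same difference, 0.18, and missed the threshold (limma adjusted p = 0.0654). Plxnb1, Plxnb3 and Plxnc1 differed by 0.13, 0.10 and 0.03, and Plxna4 by -0.17 (95% interval -0.36 to 0.01). For Plxnd1 the stretch before the start is printed, since this was the largest rise among members with a window. It is chr6:115995006-115995255 on GRCm38.p6, minus strand, holds none of the 3 motifs and so has no capitals.
Plxnd1: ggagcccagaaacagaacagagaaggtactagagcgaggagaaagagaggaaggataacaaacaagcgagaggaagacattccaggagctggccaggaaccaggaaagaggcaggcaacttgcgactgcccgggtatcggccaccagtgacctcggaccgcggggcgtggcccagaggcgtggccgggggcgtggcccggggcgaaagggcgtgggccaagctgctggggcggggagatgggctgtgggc

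Among ligands and their receptors, Sema6a and Sema6d rose while their plexins Plxna2, Plxna4 and Plxna1 differed by 0.22, -0.17 and 0.34. Plxnd1 rose while Sema3e, its direct ligand, differed by 0.09 (95% interval -0.05 to 0.22). Sema3c, which also signals through Plxnd1, fell by 1.61. Sema4c and its receptor Plxnb2 both rose, by 0.48 and 0.50, as did Sema3f and Nrp2, by 0.48 and 0.18. Sema4d fell on the probe set used here but not on its dimmer one, and its receptor Plxnb1 differed by 0.13 and was not called. Both Sema7a and its receptor Plxnc1 were measured, and Plxnc1, in the dimmest 30%, was not called. Epha2 and its ligand Efna1 both fell.

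Slit2, a secreted ligand of Robos, was the only one of 7 Slits and Robos that was called (14.3%, against 37.6% of all genes). It measured 6.15, 6.32 and 6.21 in WTR- and 6.78, 6.90 and 6.84 in MR13. All MR13 arrays lay above all WTR- arrays, at a difference of 0.61 (SE 0.06, 1.53-fold, limma adjusted p = 6.24e-05). The other Slits and the 4 Robos had differences between 0.02 and 0.23, the highest that of Robo2 (95% interval 0.00 to 0.46, limma adjusted p = 0.112), with Robo2 and Robo3 in the dimmest 30%. Robo2 was called higher without MR13 replicate 1 (0.34).

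Of 8 netrins and Unc5 receptors 1 rose and 1 fell (25.0% called, against 37.6% of all genes). None of the 8 lay in the dimmest 30%, and outside it 50.7% of all genes were called. Ntn1, the founding netrin, was the clearest change in its group. It measured 8.59, 8.72 and 8.64 in WTR- and 9.89, 9.99 and 9.94 in MR13. The ranges were more than 1 log2 unit apart, and the difference was 1.29 (SE 0.06, 2.45-fold, limma adjusted p = 3.82e-07). Of its receptors, Unc5b fell by 0.54, from 10.24 ± 0.06 to 9.69 ± 0.06 (SD, n = 3 each, limma adjusted p = 7.75e-05). Neo1, the netrin receptor neogenin, which is not among the 67, rose by 0.16, and Dcc differed by 0.05, was not called and lay in the dimmest 30%. Unc5a, Unc5c and Unc5d differed by 0.14, 0.08 and 0.01, and Ntn3, Ntn5 and Ntn4 by 0.22, 0.10 and -0.01, all not called. Ntn3 was called higher when the dimmest 30% of genes were left out, and without MR13 replicate 1. Over all families, the 36 members that were not called had differences from -0.17 to 0.23, with 95% intervals that reached from -0.39 to 0.46. A 2-fold difference in array signal lay outside each interval. Some of these members lay in the dimmest 30%, where a difference in RNA can be understated, so a larger change in RNA is not excluded for them.

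**Figure D3:**
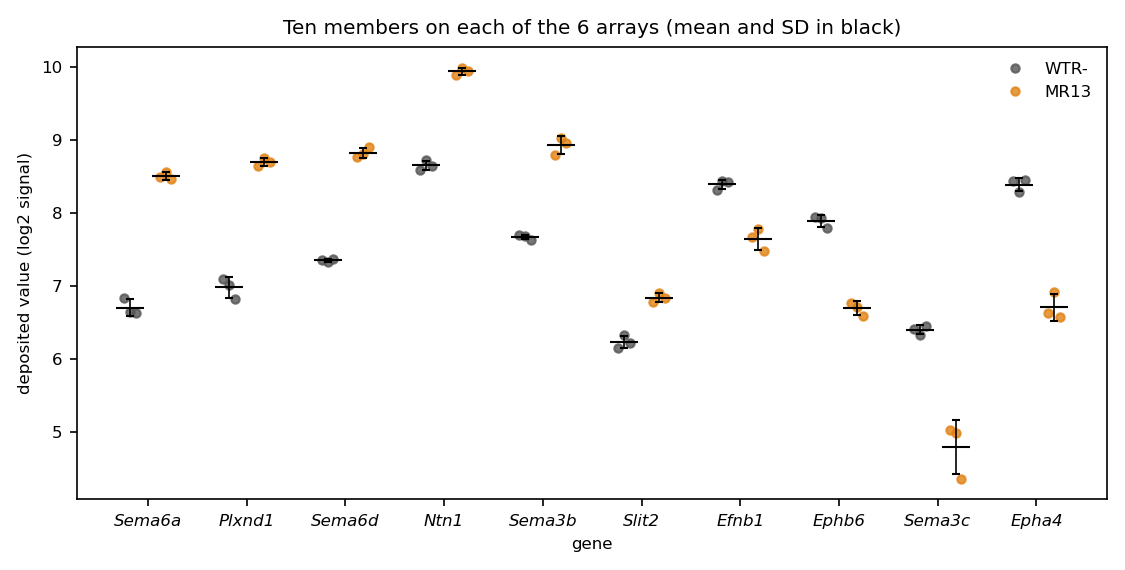
Deposited log2 signal on each of the 6 arrays for the 8 called members that differed at least 2-fold and for Efnb1 and Slit2, the largest called differences of their families, ordered by difference. Grey points are WTR- arrays, orange points are MR13 arrays, black bars are the mean and SD of 3 arrays, and no gene's groups overlap; levels of different genes cannot be compared, since their probes differ.

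Other genes of the same pathways were taken from 5 lists of 131 genes, of which 124 were measured. Of these 43 rose, 26 fell and 55 were not called (55.6% called, median 0.07), against 37.6% of all genes. Outside the dimmest 30% the share called was 60.0%, against 50.7% of all genes. The lists were chosen with earlier results of these data known, so these shares are descriptions and were not tested. Among 15 other guidance ligands 5 rose and 1 fell (40.0% called). Wnt5a, a Wnt that signals through Ryk and Ror2, and Rgma, a ligand of neogenin, both rose by 0.80, although Wnt5a lay in the dimmest 30%, and the neurotrophin Bdnf fell by 0.31. The deposited values of Bdnf were identical, at 7.04, on the 3 WTR- arrays, so that they show no spread between wells, and were 6.67, 6.85 and 6.66 in MR13.

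Among 28 co-receptors and adhesion partners 11 rose and 6 fell (60.7% called, against 37.6% of all genes). The heparan sulphate proteoglycan Sdc3 rose by 2.53 and the glypican Gpc1, a heparan sulphate carrier that can bind Slits, by 1.18. Met, the kinase that couples to B-type plexins, fell by 0.86, and the planar polarity receptor Fzd3 fell by 0.72. Among 28 effectors of plexins and neuropilins 10 rose and 8 fell (64.3% called). Rnd3, a GTPase that opposes RhoA, rose by 0.82 and Farp2, an exchange factor downstream of Plxna1, by 0.45. Gipc1, an adaptor that binds the tail of Nrp1 and Plxnd1, fell by 1.07, and the plexin-binding GTPase Rnd1 fell by 0.56.

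Among 27 effectors of Eph receptors and ephrins 10 rose and 4 fell (51.9% called, against 37.6% of all genes). None of the 27 lay in the dimmest 30%, and outside it 50.7% of all genes were called, so the share lay near the background. The Rac GTPase-activating protein Chn2, with identical values on MR13 replicates 2 and 3, rose by 1.34 and the Rac exchange factor Tiam1 by 0.59. Sh3bgrl2, whose place in this pathway was not checked, fell by 0.77, and the Ras GTPase-activating protein Rasa1 fell by 0.64. Among 26 effectors of Slits, Robos and netrins 7 rose and 7 fell (53.8% called). Enah, an actin regulator of the Ena/VASP family, rose by 1.27 and Srgap3, a Robo-binding GTPase-activating protein, by 1.08. Dapk1, a kinase downstream of unliganded Unc5 receptors whose values were identical on WTR- replicates 1 and 2, fell by 1.59, and the actin-binding protein Ablim1 fell by 1.32.

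**Figure D4:**
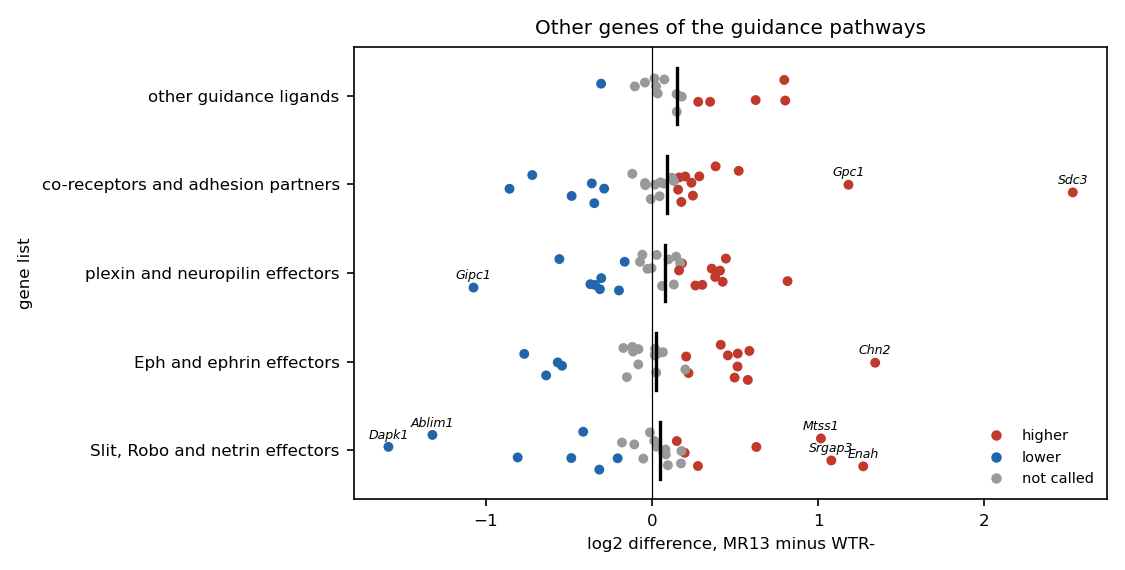
Log2 difference, MR13 minus WTR-, of 124 other genes of the guidance pathways in 5 lists, with called genes of at least 2-fold named and a black line at each list's median. Points are spread vertically only to separate them, red and blue points are genes called higher and lower, and the 5 medians lie between 0.03 and 0.15.

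Markers of mammary epithelium also differed between MR13 and WTR-. Of 12 epithelial markers 10 fell and 1, Krt5, rose (91.7% called, against 37.6% of all genes), with a median difference of -3.53. The list's median level ranged from 11.02 to 11.04 on the WTR- arrays and from 7.06 to 7.24 on the MR13 arrays. Epcam differed by -4.30 and Cdh1, which encodes E-cadherin, by -3.24, while Krt8 was not called (0.12). Of 10 fibroblast markers Pdgfra and Dcn rose, by 1.82 and 1.70 (20.0% called). The other 8, among them Col1a1 and Col3a1, were not called. None of 10 endothelial markers was called, and the list's median level was 5.52 to 5.60 in WTR- and 5.51 to 5.58 in MR13. Of 10 myeloid and lymphocyte markers Cd68 alone was called (0.35), and of 10 neuron and glia markers Map2 and Mbp fell, by 0.40 and 0.28. The part of these shifts in the differences of the guidance genes was not tested. In RNA from a whole culture, fewer cells of a type and less RNA per cell cannot be told apart.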

How the data were processed

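Expression was measured in 4T1 cells on 6 arrays, 3 of WTR- and 3 of MR13, grouped by the sample titles. The deposited values were log2 signals, 1 per probe set, which the authors had normalized. Affy and limma are named in the submitters' processing notes. Their versions, the background correction and the summarization are not given in the sources used here. That the scale is log2 follows from the range of values (2.42 to 14.4, array medians 6.57 to 6.62). Across genes, r lay between 0.9982 and 0.9988 for arrays within a group and between 0.9796 and 0.9819 for arrays of opposite groups. No detection calls were used. The number of arrays limits the precision.

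Of 28350 probe sets 21780 had 1 symbol in the annotation, 1618 several and 4952 were unnamed here. The probe set with the highest mean stood for a gene, which gave 19933 genes. Of the members 5 had more than 1 probe set, and no probe set with several symbols named a member. MR13 was compared with WTR- by limma 3.58.1 in R 4.3.3 (lmFit and eBayes, two-sided, no covariate), with Benjamini-Hochberg adjustment over all genes. The scripts were tested on simulated data. The table held 0 columns of another series.

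The members and gene lists were chosen with earlier results of these data known. Values on all 6 arrays were given for called members of at least 2-fold and for the largest called difference in each of 6 families, and from each pathway list the 2 called genes with the largest rise and the 2 with the largest fall were named (Dcc, Neo1, neighbours on a chromosome and markers were named besides, after their values were seen). Promoter windows were those of RefSeq on GRCm38.p6, and 250 bases before each start were searched. Alternatives were another quantile normalization, centring on the array median, leaving out the dimmest 30% of genes, averaging the probe sets of a gene, an intensity trend with a robust prior, a plain t-test, the replicate number as a block, and leaving out each array in turn.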

Additional observations from a re-analysis of the deposited data

How the results depend on the processing

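Under 9 alternatives that kept all 6 arrays, the number of genes called lay between 6524 (the methods' t-test with Benjamini-Hochberg adjustment) and 8140 (the same t-test unadjusted), the members called higher between 16 and 22 and those called lower between 13 and 15, and the members' median between 0.03 and 0.10. Leaving out each array in turn gave 6716 to 6971 genes, 14 to 20 members higher and 13 to 15 lower, and medians of 0.02 to 0.09. Of 31 called members 27 stayed called under every alternative that tested them. Sema4f, Plxna3, Nrp2 and Plxna2 lost the call under at least 1, without MR13 replicate 3 all 4 of them, and the t-test with adjustment lost Sema4f and Plxna3. Another 11 members gained a call under at least 1 alternative, among them Efna5 at adjusted p = 0.0205 after another quantile normalization. No called member turned direction. The 10 members described on every array kept their direction and call under all alternatives.

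Whether the replicate numbers pair the samples is not known. Deviations of same-numbered arrays from their group means correlated at 0.13, 0.00 and 0.18 across genes. Those of differently numbered arrays correlated at -0.20 to 0.05. Deviations from a mean of 3 arrays cancel within a group, so these values cannot settle whether there was a pairing. With the replicate block 7442 genes and 32 members were called, 18 higher and 14 lower (median 0.04). All 31 earlier calls were kept and Efna3 was gained (adjusted p = 0.0496). Signal over background was not known, so a dim gene that was not called may still differ.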
